A study of Mus musculus with 57 samples.

Results

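Igfn1, Tcap, Zfp831, Wnt10a and Kirrel2 are 5 genes, of 21118 counted, that were close to absent from ribosome-bound RNA of the newborn mouse cortex and present in every adult library. They were picked by symbol from a ranking of rises between postnatal day 1 (P1) and adulthood, because none is a usual marker of astrocytes. Their rises are therefore the basis of the choice and are described without a test. The question put to the data was whether each gene moves with astroglial, myelin or neuronal transcripts. The study purified polysomes by translating ribosome affinity purification, in which ribosomes that carry a GFP-tagged L10 protein are pulled down with an antibody together with the messages on them. All mice had the C57BL/6 background and the Aldh1l1-L10-GFP transgene, which places the tag in cells that use the Aldh1l1 promoter, and they were conventionally housed with no treatment named. Whole cortex was taken at P1, P4, P7, P14, P35 and in adults of both sexes, in 53 libraries. The groups labelled female held 4, 4, 8, 5, 3 and 4 libraries in that order of age, and the groups labelled male 4, 4, 4, 5, 3 and 5. No total cortex RNA was used here, so enrichment over the tissue was not measured.

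The 5 genes come from several fields of biology, and 2 of them, Igfn1 and Tcap, are known from muscle. Kirrel2 (Neph3, or filtrin) is an immunoglobulin-domain adhesion protein of the nephrin and Neph family, which joins neighbouring cells at the filtration slit of the kidney and at sites of cell recognition in the nervous system. Wnt10a is a secreted Wnt ligand that acts through Frizzled receptors and Lrp coreceptors, best known from teeth, hair and skin. Igfn1 encodes an immunoglobulin-like and fibronectin type III domain protein of skeletal muscle. Tcap (telethonin) caps the giant muscle protein titin at the Z-disc of striated muscle. Zfp831 is named for its zinc finger sequence, and a role for it in the cortex is not described here.

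All 5 genes were found in the annotation of mouse build GRCm38, and none overlaps another annotated gene. Igfn1 (ENSMUSG00000051985) lies on the minus strand of chr1:135953578-136006342 and has 8996 exon bases. Wnt10a (ENSMUSG00000026167) lies on the plus strand of chr1:74791516-74804179 with 2468 exon bases. Zfp831 (ENSMUSG00000050600) lies on the plus strand of chr2:174643534-174710832 with 9807 exon bases. Kirrel2 (ENSMUSG00000036915) lies on the minus strand of chr7:30447534-30457690 with 3939 exon bases, and Tcap (ENSMUSG00000007877) on the plus strand of chr11:98383811-98384953 with 948. Counts cover whole genes, so exons, introns and untranslated regions of a gene cannot be told apart in them.

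One start region is shown because 2 genes of the same adhesion family leave it in opposite directions. Kirrel2 and Nphs1, which encodes nephrin, are separated by 624 annotated bases. RefSeq promoter windows were found for 2 of the 5 genes. The 250 bases before the RefSeq start of Kirrel2 are given on its own strand, in build GRCm38.p6 at chr7:30457516-30457765, with the only E-box in capitals. The annotated gene given above starts further out, at chr7:30457690, so the 2 starts differ. Bases below that coordinate, the E-box among them, lie inside the annotated gene. Only the bases above it lie between Kirrel2 and Nphs1.

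Kirrel2: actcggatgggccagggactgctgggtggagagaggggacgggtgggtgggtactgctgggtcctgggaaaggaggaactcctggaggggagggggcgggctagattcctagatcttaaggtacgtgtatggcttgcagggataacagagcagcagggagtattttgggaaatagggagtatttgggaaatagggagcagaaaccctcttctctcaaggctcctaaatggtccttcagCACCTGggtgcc

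An E-box has the letters CANNTG and is bound by basic helix-loop-helix factors, here in the form CACCTG. It had 1 match in this window and at least 1 in 66.2% of the 32851 windows of the same length in the RefSeq table. The NFI half-site TTGGC, read on both strands, had 0 matches here and was found in 41.5% of windows. The SOX letters ACAANG, also on both strands, had 0 matches and were found in 36.3%.

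The median library held 24033399 counts, the smallest 14768178 (P14 male 4) and the largest 48541139 (P7 female 6). Levels are CPM, the usual counts normalised to library size, on library sizes scaled by trimmed means (TMM), given as mean ± SD over libraries. The yardsticks were 4 cell classes: mature astrocyte (29 genes), myelin (21), neuronal (27 measured) and late neuronal (16, ion channels and synaptic genes that appear as cortical neurons mature). The score of a class in a library averages the log2 CPM of its genes. The mature astrocyte score ran from 3.96 to 9.19 and the neuronal score from 4.53 to 7.87, so transcripts of neurons were present in every library beside those of astrocytes. In bulk RNA, fewer cells of a type and less RNA per cell cannot be told apart. In 9 libraries the sex-linked transcripts went against the sex label or few genes were detected. Among them are adult male 60 and P35 male 10, whose Y-linked transcripts were at 0.0933 and 0.171 CPM and whose descriptions, unlike their source names, call them female. They are listed under the label male throughout. In 2 others, P7 male 6 and P14 male 6, the myelin score went against the age label. It was 4.14 in P7 male 6, where the other P7 libraries lay between -1.34 and 2.48, and 1.12 in P14 male 6, where the other P14 libraries lay between 2.00 and 4.58. All 5 genes were higher in the library labelled P7 than in the one labelled P14: Tcap had 36.9 against 2.33 CPM, Zfp831 7.83 against 0.558 CPM, Wnt10a 4.12 against 0.0507 CPM, Kirrel2 3.46 against 0.304 CPM and Igfn1 1.21 against 0 CPM. The part of these libraries in the results was measured by leaving them out.

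Each gene had its own course over the ages. Kirrel2 went from low levels at P7 to its adult level at P14. Igfn1 and Wnt10a increased over several ages until P35 or adulthood. Zfp831 was already present at P7, and Tcap had single libraries far above the others at P7, P14 and P35. The lowest adult library was above the highest P1 library, and above the highest P4 library, for each of the 5 genes. Over all genes, 3.58% had no overlap of this kind between adult and P1 libraries, and nothing is read from this because the choice used it. The share between adult and P4 libraries was not computed, and nothing is read from P4 either. The lowest adult library was also above the highest P7 library for Igfn1 only, and over all genes for 0.53%. Wnt10a and Kirrel2 overlapped through P7 male 6 alone. Without it their highest P7 libraries had 0.733 and 2.43 CPM, under their lowest adults at 3.57 and 2.73 CPM. The share over all genes without that library was not computed.

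**Figure D1:**
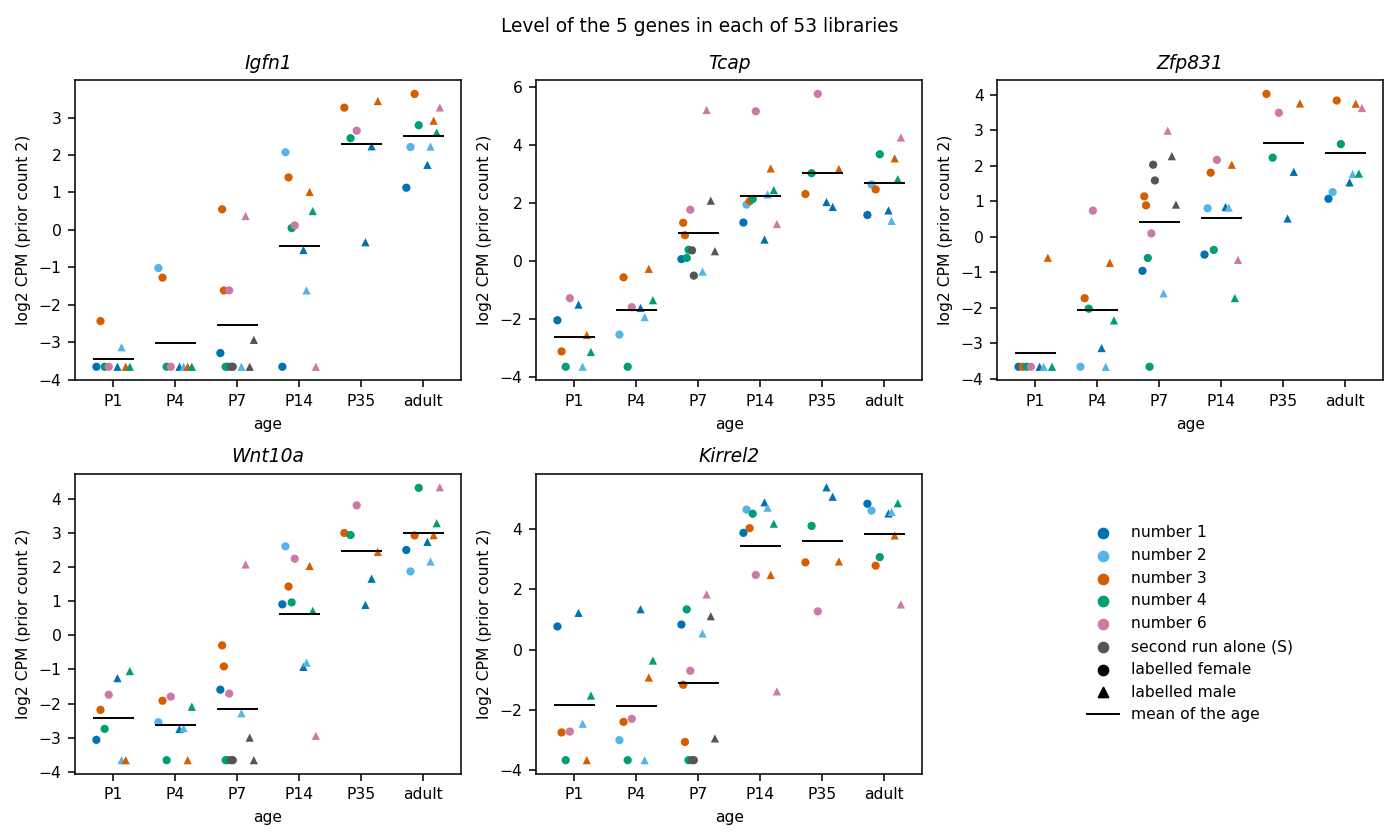
Level of each gene (log2 CPM with a prior count of 2, y axis) by age (x axis) in 53 libraries, circles for libraries labelled female and triangles for male, coloured by the description number, with a line at the mean of each age. Kirrel2 has its jump between P7 and P14, with number 1 (dark blue) high and number 6 (pink) low, and Tcap has its highest libraries under number 6.

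Kirrel2, the adhesion protein, had 0.547 ± 0.873 CPM at P1, 0.484 ± 0.829 CPM at P4 and 1.00 ± 1.18 CPM at P7. At P14 it had 16.1 ± 9.76 CPM, at P35 18.0 ± 15.7 CPM and in adults 17.6 ± 9.83 CPM. The P7 libraries ran from 0 through a median of 0.451 to 3.46 CPM, and the P14 libraries from 0.304 through 17.0 to 29.1 CPM. These ranges overlapped only through P14 male 6, and without it the lowest P14 library had 5.44 CPM. The share of all genes with such a separation of P7 and P14 was not computed. Kirrel2 at P14 was at 91.9% of its adult mean, and at 102% when P14 male 6 was left out. At P35 it was at 52.6% of the adult mean in libraries labelled female and at 150% in those labelled male, 3 libraries each, so the pooled P35 mean joins opposite deviations. In adult females it had 28.2, 24.1, 6.76 and 8.23 CPM in replicates 1 to 4. In adult males it had 22.5, 23.4, 13.6, 28.5 and 2.73 CPM in replicates 1, 2, 3, 4 and 60. Replicates 1 and 2 of both sexes and male 4 were high, replicate 3 of both sexes, female 4 and male 60 were lower, and the labelled sexes overlapped. The 121 counts at P1 and 3462 in adults gave a ratio of 28.3 on TMM-scaled library sizes, with a 95% interval of 23.6 to 34.2 for counting error only. On the log2 scale the fitted difference between adult and P1 libraries was 4.99 ± 0.98 (SE). At P1, 66 counts came from P1 male 1 and 40 from P1 female 1, and no other library had more than 8. Without description number 1, which both carry, the fitted difference was 7.35. The counting interval does not cover this spread between libraries.

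Wnt10a, the ligand, had 0.152 ± 0.155 CPM at P1, 0.0979 ± 0.0791 CPM at P4 and 0.496 ± 1.16 CPM at P7. The P7 mean was set by P7 male 6 with 4.12 CPM, and the mean without that library was 0.167 ± 0.238 CPM. Wnt10a then had 2.34 ± 1.97 CPM at P14, 6.58 ± 4.30 CPM at P35 and 9.39 ± 6.23 CPM in adults. Its P35 mean was at 70.0% of the adult mean, but the libraries of these ages overlapped and the labelled sexes had unlike means. The P35 libraries labelled female were at 107% of the adult females and those labelled male at 35.3% of the adult males. The labelled sexes did not carry the same description numbers at P35, and P35 male 10 had Y-linked transcripts at only 0.171 CPM. No sex difference was called for Wnt10a. In adult females it had 5.55, 3.57, 7.49 and 19.8 CPM in replicates 1 to 4. In adult males it had 6.57, 4.38, 7.53, 9.62 and 20.0 CPM in replicates 1, 2, 3, 4 and 60. Female 4 and the library labelled male 60 stood above the other adults. The pooled counts, 34 at P1 and 2039 in adults, gave a ratio of 59.4 (counting interval 42.3 to 85.9), and the fitted log2 difference was 5.90 ± 0.85 (SE).

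Igfn1, the muscle protein, was listed at 0 counts in 6 of 8 P1 libraries, 6 of 8 P4 libraries and 6 of 12 P7 libraries. Its means were 0.0175 ± 0.0375, 0.0934 ± 0.174 and 0.264 ± 0.494 CPM at these ages. They reached 1.28 ± 1.30 CPM at P14, 6.22 ± 3.62 CPM at P35 and 6.31 ± 3.20 CPM in adults. The main rise of Igfn1 thus came between P14, at 20.3% of the adult mean, and P35, at 98.4%. The P14 libraries ran from 0 through a median of 0.981 to 4.13 CPM and the P35 libraries from 0.716 through 5.80 to 10.8 CPM. In adult females it had 2.10, 4.56, 12.3 and 6.87 CPM in replicates 1 to 4, and in adult males 3.26, 4.60, 7.49, 6.00 and 9.60 CPM in replicates 1, 2, 3, 4 and 60. Replicate 1 was the lowest adult of each sex. Only 4 counts in all were found at P1 against 1360 in adults, a ratio of 337 with a counting interval of 131 to 1240, so the size of the rise is known to about an order of magnitude. The fitted log2 difference of 8.17 ± 1.23 (SE) depends on the prior count at such low counts.

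Zfp831, the zinc finger gene, had 0.0732 ± 0.207 CPM at P1 and 0.331 ± 0.534 CPM at P4. All of its 13 counts at P1 came from 1 library, P1 male 3. It had 2.28 ± 2.30 CPM at P7, 1.90 ± 1.52 CPM at P14, 8.34 ± 6.01 CPM at P35 and 6.61 ± 5.12 CPM in adults. The P7 and P14 libraries overlapped over most of their ranges, 0 to 7.83 and 0.223 to 4.39 CPM. The highest P7 library was P7 male 6. Without P7 male 6 and P14 male 6 the means were 1.78 ± 1.56 CPM at P7 and 2.04 ± 1.53 CPM at P14. The libraries sequenced in the second run alone, all at P7, had 1.79 to 4.73 CPM. The ages were not compared without them, so whether there was a step from P7 to P14 was not settled. In adult females it had 2.02, 2.31, 14.2 and 6.01 CPM in replicates 1 to 4. In adult males it had 2.81, 3.32, 13.3, 3.35 and 12.2 CPM in replicates 1, 2, 3, 4 and 60. Replicate 3 of both sexes and male 60 were at 12.2 CPM or above, and the other adults were at or under 6.01 CPM. The pooled ratio of adult to P1 counts, 1453 to 13, was 111 (counting interval 64.5 to 208), and the fitted log2 difference was 7.95 ± 1.23 (SE).

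Tcap, the titin cap, had 0.115 ± 0.127 CPM at P1 and 0.302 ± 0.250 CPM at P4. The P7 mean was 4.61 ± 10.2 CPM with P7 male 6 at 36.9 CPM, and 1.68 ± 1.14 CPM without it. At P14 the mean was 7.33 ± 10.2 CPM with P14 female 6 at 35.7 CPM, and at P35 it was 13.9 ± 19.8 CPM with P35 female 6 at 54.1 CPM. A single library of number 6 thus set the mean of Tcap at each of 3 ages. With the libraries of number 6 left out, Tcap had 1.52 ± 1.06 CPM at P7, 4.42 ± 2.23 CPM at P14, 5.87 ± 2.45 CPM at P35 and 6.43 ± 3.86 CPM in adults, so the peak at P35 was not there. In adult females it had 2.91, 6.14, 5.44 and 12.7 CPM in replicates 1 to 4, and in adult males 3.26, 2.52, 11.5, 6.97 and 19.0 CPM in replicates 1, 2, 3, 4 and 60. The highest adult was again the library of number 6. The pooled counts of 25 at P1 and 1704 in adults gave a ratio of 67.5 (counting interval 45.5 to 105), and the fitted log2 difference was 5.97 ± 0.83 (SE).

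Levels of different genes can be set beside each other only per length. In adults, per kilobase of exon, Tcap had 8.26 ± 5.83 CPM, Kirrel2 4.46 ± 2.50 CPM and Wnt10a 3.80 ± 2.52 CPM. Igfn1 and Zfp831 had 0.701 ± 0.355 and 0.674 ± 0.522 CPM per kilobase. The first 3 did not differ beyond the spread between libraries, nor did the last 2.

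The yardstick lists rose as well, each in its own way. From P1 to adult, 14.6% of all genes rose and 13.4% fell by edgeR's quasi-likelihood test with Benjamini-Hochberg adjustment, and the median log2 difference of all genes was 0.06. Of 29 mature astrocyte genes 24 rose and none fell (median 2.33), among them the glutamate transporter gene Slc1a2 (3.80 ± 0.49, adjusted p = 9.92e-08) and the glutamine synthetase gene Glul (3.53 ± 0.53, adjusted p = 1.5e-06). All 21 myelin genes rose (median 3.66), among them Mobp (6.65 ± 1.01, adjusted p = 2.32e-06) and Opalin (6.89 ± 1.04, adjusted p = 1.93e-06), both made in myelinating oligodendrocytes. Of 27 neuronal genes 13 rose and 4 fell (median 1.24). Of 16 late neuronal genes 15 rose and none fell (median 3.60), led in size by Pvalb (6.78 ± 0.85, adjusted p = 5.47e-08), the parvalbumin of fast-spiking interneurons. The rise with age is thus shared by astrocyte, myelin and late neuronal genes, and does not separate these classes for the 5 genes.

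**Figure D2:**
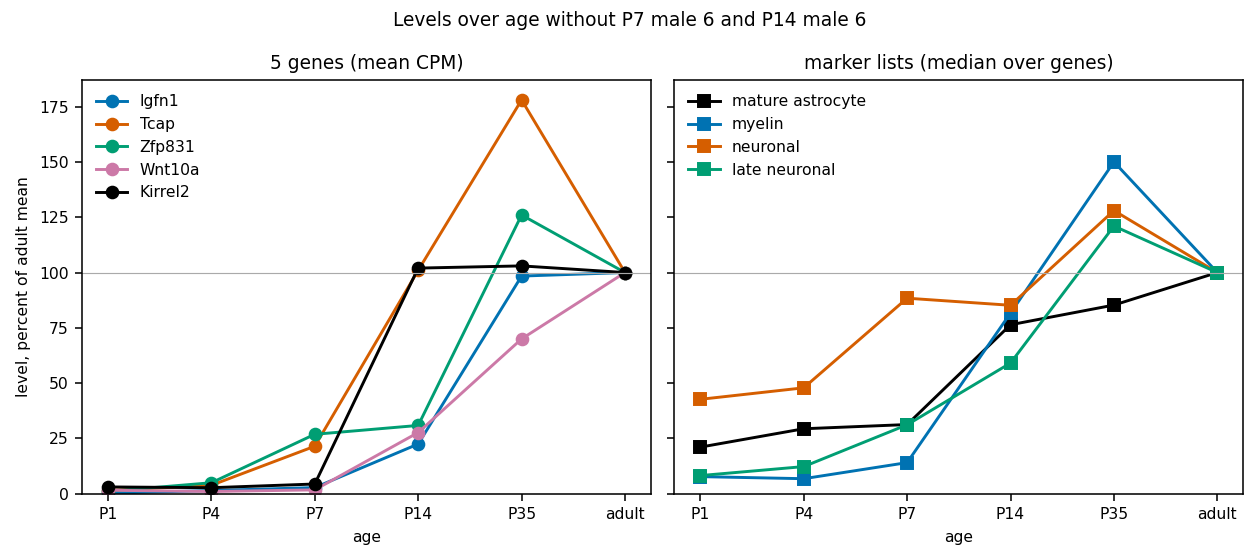
Mean CPM of each gene (left) and the median over the genes of each marker list (right) at 6 ages (x axis) as a percent of the adult mean (y axis), without P7 male 6 and P14 male 6. Kirrel2 is near its adult level at P14, and the P35 value of Tcap rests on P35 female 6. Both sexes are pooled. At P35 the labelled sexes lie on opposite sides of their adult means for Kirrel2 (52.6% female, 150% male) and Wnt10a (107% and 35.3%). They did not carry the same description numbers there, and no sex difference was called.

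The shape of the rise can be set beside that of the lists as a description. With all libraries, the median mature astrocyte gene was at 29.7% of its adult mean at P7, 70.3% at P14 and 85.3% at P35. The median myelin gene was at 24.6%, 73.9% and 150%, and the median late neuronal gene at 32.5%, 54.4% and 121%. Kirrel2, at 5.70%, 91.9% and 103%, was lower at P7 and higher at P14 than each of these medians. Igfn1 (4.18%, 20.3% and 98.4%) and Wnt10a (5.28%, 24.9% and 70.0%) were under all 3 medians at P7 and P14. Zfp831 was at 34.5%, 28.7% and 126%, so its mean rose most after P14. Without P7 male 6 and P14 male 6 it was at 26.9% at P7 and 30.9% at P14. Its P7 mean also holds the libraries of the second run alone, at 1.79 to 4.73 CPM, a run found only at P7.

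Differences between libraries of the same labelled sex and age are free of the rise only where the age labels hold. Whether they hold was not tested for the pair of libraries whose myelin score went against the age label. The slopes without that pair are given further on. Within groups, Kirrel2 differed in sign from the other 4 genes, though only between description numbers and not within them, as given further on. Kirrel2 was higher in libraries rich in astrocyte transcripts and lower in libraries rich in neuronal ones. Igfn1, Tcap, Zfp831 and Wnt10a were higher in libraries with more myelin and more neuronal transcripts. A slope is the log2 change of a gene per log2 unit of a class score, fitted by edgeR's quasi-likelihood test over all 53 libraries with the 12 sex and age groups and the sequencing run as terms, and adjusted by Benjamini-Hochberg over all genes.

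On the mature astrocyte score, Kirrel2 had a slope of 1.41 ± 0.20 (SE, adjusted p = 1.9e-07 by edgeR). Such a positive slope was called for 22.4% of all genes and a negative one for 23.9%. For scale, the 29 astrocyte genes, which themselves make up the score, had a median slope of 0.98. Zfp831 had a slope of -1.17 ± 0.26 (adjusted p = 0.00032) and Tcap one of -0.67 ± 0.20 (adjusted p = 0.00562). Tcap's call rested on P14 female 6, without which the slope was -0.50 (adjusted p = 0.0553). Igfn1 at -0.64 ± 0.36 (adjusted p = 0.14) and Wnt10a at -0.45 ± 0.24 (adjusted p = 0.116) did not pass the threshold of 0.05. Both passed narrowly when P14 male 6 was left out (adjusted p = 0.0499 and 0.0458).

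On the neuronal score, the slope of Zfp831 was 1.37 ± 0.19 (adjusted p = 8.62e-08) and that of Tcap 0.93 ± 0.19 (adjusted p = 5.37e-05). Igfn1 had 1.11 ± 0.29 (adjusted p = 0.00111) and Wnt10a 0.76 ± 0.22 (adjusted p = 0.0032). Kirrel2 had the opposite sign, at -0.99 ± 0.28 (adjusted p = 0.00208). A positive slope on this score was called for 34% of all genes and a negative one for 26.7%, so a call alone does not set a gene apart. On the late neuronal list, an alternative, the slope of Kirrel2 was -0.39 (adjusted p = 0.39), while the other 4 genes kept positive slopes that passed.

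On the myelin score, Igfn1 had a slope of 1.51 ± 0.27 (adjusted p = 8.03e-05), Zfp831 1.22 ± 0.23 (adjusted p = 0.000164), Wnt10a 1.01 ± 0.21 (adjusted p = 0.000324) and Tcap 0.82 ± 0.19 (adjusted p = 0.00113). Kirrel2 had 0.20 ± 0.36 (adjusted p = 0.693). Positive slopes on myelin were called for 23.6% of all genes and negative ones for 13.6%. Neuronal genes also went with the myelin score, 21 of 27 with positive slopes, and astrocyte genes went against the neuronal score, 28 of 29 with negative slopes. The neuronal score thus moved with the myelin score and against the astrocyte score between libraries. Astrocyte and myelin were less linked, as on the myelin score 1 of 29 astrocyte genes had a positive slope and 3 a negative one. With all 3 scores in 1 model only the astrocyte slope of Kirrel2 passed, at 1.49 (adjusted p = 0.0364).

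**Figure D3:**
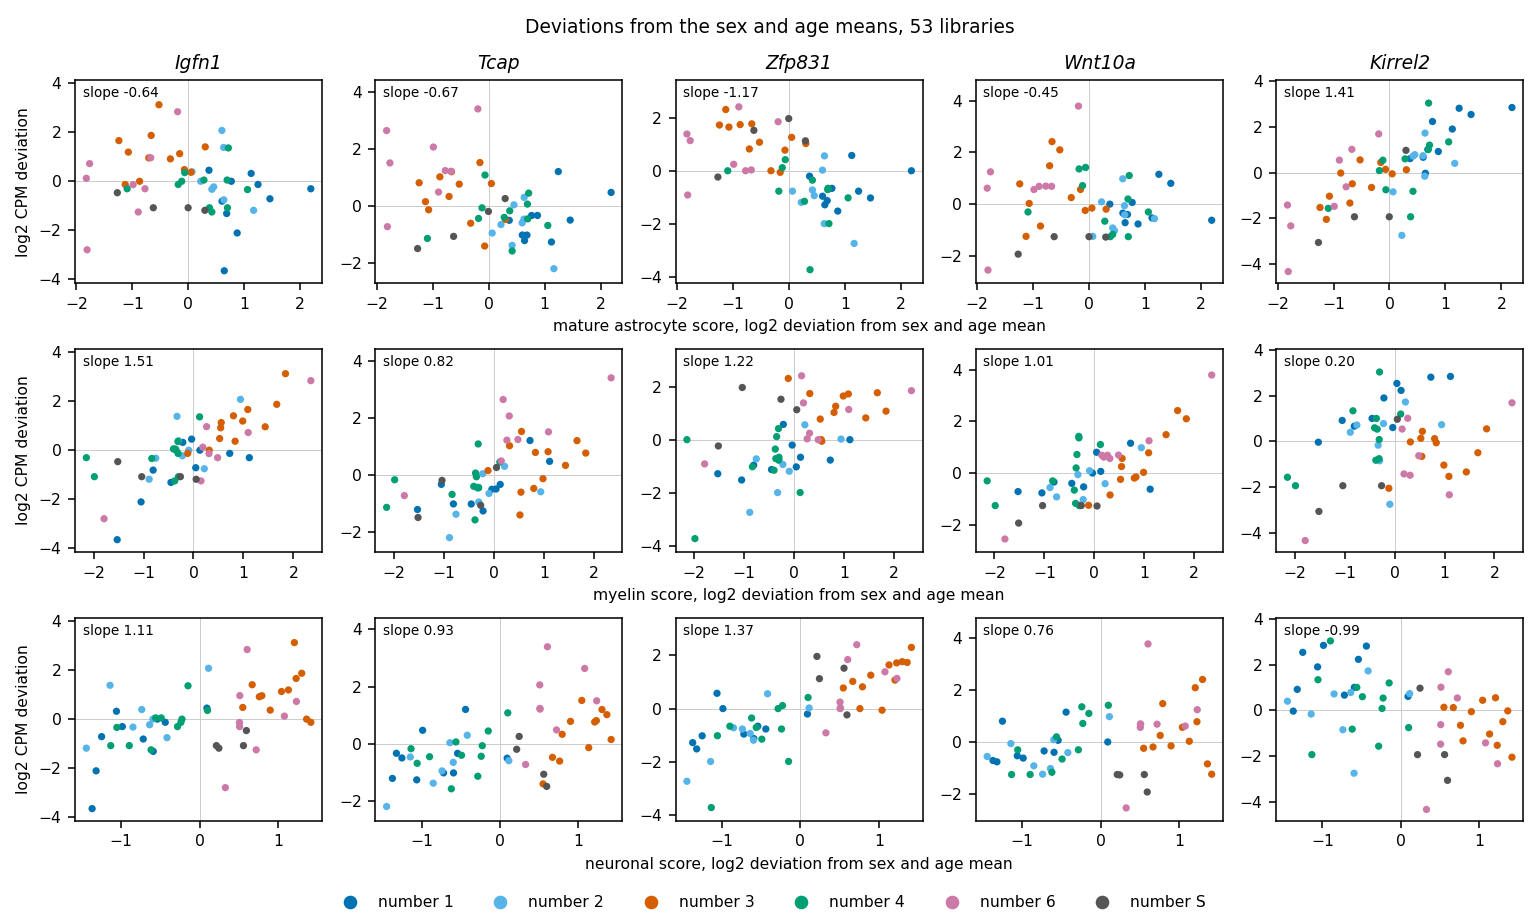
Deviation of each gene's log2 CPM from the mean of its sex and age group (y axis) against the same deviation of the mature astrocyte, myelin and neuronal scores (x axes, rows), 1 point per library, 53 libraries, coloured by description number, with the fitted slope in each panel. Kirrel2 runs upwards on the astrocyte score and downwards on the neuronal score, and the slopes of the other 4 genes have the opposite signs.

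Much of the spread between libraries of one group followed the description number, the first digit of the replicate in a library's name, which recurs in most groups but not in all. Libraries sequenced in the second run alone, all at P7, were treated as a number of their own and are called S. Numbers differed in 69.1% of all genes (adjusted p under 0.05, edgeR, number terms tested jointly). All 5 genes were among them: the adjusted p was 2.96e-05 for Zfp831, 5.13e-05 for Tcap, 0.000852 for Kirrel2, 0.00259 for Wnt10a and 0.00422 for Igfn1. With such a share over all genes, this says only that the 5 genes were no exception. The call for Wnt10a was lost without P7 male 6 (adjusted p = 0.0895).

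The numbers that were high differed from gene to gene. Over the P14, P35 and adult libraries, the median of Kirrel2 was 28.6 CPM in number 1, 24.3 CPM in number 2, 17.8 CPM in number 4, 7.37 CPM in number 3 and 2.53 CPM in number 6. The lowest library of number 1, at 14.4 CPM, was above the highest of number 6, at 5.44 CPM. How many of all genes were separated in this way was not computed, so nothing is read from it. Zfp831 had the reverse, with medians of 1.86, 2.00 and 3.35 CPM in numbers 1, 2 and 4 and of 13.3 and 7.76 CPM in numbers 3 and 6. Tcap was highest in number 6, with a median of 27.4 CPM against 3.09 CPM in number 1. Igfn1 was highest in number 3, with a median of 8.52 CPM against 1.41 CPM in number 1. Wnt10a differed less, from 2.43 CPM in number 1 to 9.25 CPM in number 6.

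Against number 1, with sex and age in the model, Kirrel2 was lower by a log2 difference of -2.53 ± 0.64 in number 3 (adjusted p = 0.00106) and -3.39 ± 0.85 in number 6 (adjusted p = 0.0016). In S it was called lower too (adjusted p = 0.00217, as were 18.3% of all genes), with 45, 0, 0 and 1 counts in the 4 S libraries, so the fitted difference of -5.08 ± 1.29 carries little size. Zfp831 was higher by 2.45 ± 0.58 in number 3 (adjusted p = 0.00051), by 2.55 ± 0.70 in number 6 (adjusted p = 0.00421) and by 2.92 ± 0.82 in S (adjusted p = 0.00543, a direction called in S for 14.3% of all genes). Tcap was higher in number 6 by 2.59 ± 0.59 (adjusted p = 0.000515), and Igfn1 in number 3 by 2.65 ± 0.82 (adjusted p = 0.00645). Of all genes, 28.2% were higher and 24.8% lower in number 3, and 17.2% were higher and 17.1% lower in number 6. In number 3, 28 of 29 astrocyte genes were lower (median -1.74) and all 27 neuronal genes higher (median 2.09). In number 6 all 29 astrocyte genes were lower (median -2.55) and 26 of 27 neuronal genes higher (median 1.62). Kirrel2 therefore went the way of the astrocyte list between numbers, and Zfp831 the way of the neuronal list. In the 4 S libraries, Wnt10a had 1 count in all and Igfn1 1 count in all, so their fitted differences there carry no size, while Zfp831 had 1.79 to 4.73 CPM.

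**Figure D4:**
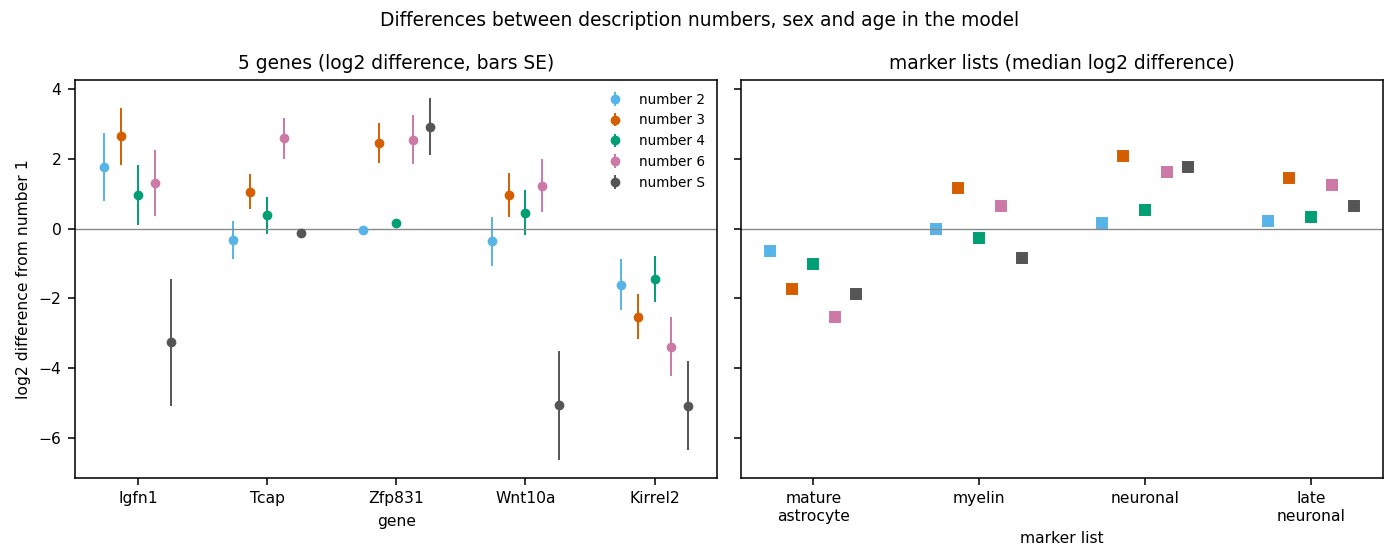
Log2 difference of each description number from number 1 (y axis) for the 5 genes, with SE bars (left, no bar where the difference was too near 0 to give one), and the median over the genes of 4 marker lists (right). Kirrel2 lies below 0 for every number, as the mature astrocyte list does, and Zfp831 lies above 0 for numbers 3, 6 and S, as the neuronal list does.

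Since the numbers carry the scores, the slopes were also fitted within numbers. With the number in the model, the astrocyte slope of Kirrel2 was 2.47 (adjusted p = 0.000453), and its neuronal slope turned to 0.42 (adjusted p = 0.817). The neuronal slopes of Igfn1 at 2.27 (adjusted p = 0.0453) and Wnt10a at 2.13 (adjusted p = 0.0229) passed, while those of Tcap at 1.11 (adjusted p = 0.222) and Zfp831 at 1.20 (adjusted p = 0.253) did not. The negative astrocyte slopes were not there within numbers, with 1.02 for Tcap (adjusted p = 0.0675) and 0.58 for Zfp831 (adjusted p = 0.508). The myelin slopes of Wnt10a at 1.33 (adjusted p = 0.000711), Igfn1 at 1.65 (adjusted p = 0.00715) and Tcap at 0.73 (adjusted p = 0.0219) passed, that of Zfp831 at 0.68 (adjusted p = 0.167) did not, and that of Kirrel2 passed at 1.14 (adjusted p = 0.02). Within numbers no slope of the 5 genes was negative, the lowest being 0.01 for Igfn1 on the astrocyte score (adjusted p = 0.979), so the opposed signs of Kirrel2 and the other genes were a difference between numbers.

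P7 male 6 and P14 male 6 carried part of what was left within numbers. Without both and with the number in the model, the astrocyte slope of Kirrel2 was 2.35 (adjusted p = 0.000694) and the myelin slope of Wnt10a 1.17 (adjusted p = 0.028). The myelin slopes of Igfn1 at 1.33 (adjusted p = 0.126), Tcap at 0.51 (adjusted p = 0.232) and Kirrel2 at 1.11 (adjusted p = 0.089) no longer passed, nor did the neuronal slopes of Igfn1 at 1.92 (adjusted p = 0.0786) and Wnt10a at 1.68 (adjusted p = 0.0729). With both left out and no number in the model, every call above was kept.

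The genes whose levels were most like each of the 5 were taken from 13431 genes with a mean of at least 1 CPM, predicted genes left out. These correlations are over the same 53 libraries, which share age, number and depth, and are given as a description. Over all libraries the 5 genes most like Kirrel2 were Fam107a (r = 0.934), the gap junction gene Gjb6 (r = 0.925), the potassium channel gene Kcng4 (r = 0.92), the glutamate transporter gene Slc1a2 (r = 0.908) and the proline dehydrogenase gene Prodh (r = 0.905). Gjb6 and Slc1a2 are on the mature astrocyte list. With the mean of each sex and age group taken away, Fam107a (r = 0.784), Slc1a2 (r = 0.766), Gjb6 (r = 0.761), Dmp1 (r = 0.761) and Cideb (r = 0.756) were the most like. Without P7 male 6 and P14 male 6 these were Dmp1 (r = 0.801), Cideb (r = 0.76), Irf2bp2 (r = 0.745), Trac (r = 0.743) and Lgi4 (r = 0.735), so Fam107a, Slc1a2 and Gjb6 left the first 5.

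Among the genes most like Zfp831 were Fam126b (r = 0.92), Ptpn3, Camk2a and Camta2 (r = 0.908, 0.908 and 0.906). Camk2a, a calcium-dependent kinase subunit of excitatory neurons, is on the neuronal list. With group means taken away they included Phf24 (r = 0.848), Tppp, Fam126b and Pls3, each with a positive slope on the neuronal score and a negative one on the astrocyte score. Tcap was most like Lamp5 (r = 0.924), Bcl2l2, Ovol2, Rgs7bp and Cacng3 over all libraries. With group means taken away it was most like Ppp1r14a (r = 0.803), Thy1 (r = 0.79), Cort, Cartpt and Zfp385b. Ppp1r14a is on the myelin list and Thy1, a surface protein of neurons, on the neuronal list, while Cort and Cartpt encode neuropeptide precursors.

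Among the genes most like Igfn1 were Wnt10a (r = 0.919), Hapln2 (r = 0.906), Opalin and Nrsn1. With group means taken away it was most like Hapln2 (r = 0.744), a link protein at nodes of Ranvier, then Tmem59l, Chrm3, Myrf and Mbp. Hapln2, Myrf and Mbp are on the myelin list, and none of the 3 was among the first 5 without P7 male 6 and P14 male 6. Among the genes most like Wnt10a were Opalin (r = 0.922), Igfn1 (r = 0.919), Pvalb (r = 0.916) and Igfbp6. With group means taken away it was most like the troponin gene Tnnc1 (r = 0.735), Ppp1r14a, Prss22, the Nogo receptor gene Rtn4r and Olfm1, and without the pair of libraries like Rtn4r (r = 0.682), Ly6a, Myrf, Cldn11 and Them6. Among the 5 genes themselves, with group means taken away, Igfn1 and Wnt10a had the highest correlation (r = 0.687), then Tcap and Wnt10a (r = 0.636). Kirrel2 and Zfp831 had the lowest (r = -0.161). With the number taken away as well, that pair had r = 0.444, Igfn1 and Wnt10a r = 0.725, and all pairs were positive, from 0.272 for Tcap and Zfp831.

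No sex difference was called in the 5 genes. As a mean over the 6 ages, the log2 difference of females minus males in Kirrel2 was -1.39 ± 0.51 (adjusted p = 1, unadjusted p = 0.00952, edgeR), with a mean of the age means of 7.23 CPM in females and 10.7 CPM in males. In Igfn1 it was 1.18 ± 0.59 (adjusted p = 1), with 2.62 CPM in females and 2.12 CPM in males. Zfp831 had -0.60 ± 0.46 (adjusted p = 1) although its mean in CPM was higher in females, 3.50 against 3.11 CPM. Tcap and Wnt10a had log2 differences of -0.01 and 0.00. Over all genes 5 were called, which is 0.0237%. In the test of whether the change with age differed between the sexes, 0% of all genes were called by edgeR (0 genes, with 353 at an unadjusted p under 0.05 and 3 called by DESeq2), and the adjusted p was 1 for each of the 5. At P35 the 3 libraries of a sex carried different numbers in females and males, so number and sex cannot be fully told apart there. No sex difference in the 5 genes was called without the 9 libraries either.

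Of the nearest counted genes on each side of the 5, only those beside Kirrel2 passed the threshold of 0.05 from P1 to adult. Both rose, as did 14.6% of all genes. Nphs1, on its opposite strand, had 0.122 ± 0.142 CPM at P1 and 2.31 ± 1.62 CPM in adults, a log2 difference of 4.28 ± 0.73 (adjusted p = 1.52e-05). Its slope was 0.59 on the astrocyte score (adjusted p = 0.0254) and -0.55 on the neuronal score (adjusted p = 0.0239), the same signs as Kirrel2. Aplp1, an amyloid precursor-like protein gene 1998 bases away on the same strand, rose by 1.34 ± 0.31 (adjusted p = 0.000903) and had a positive neuronal slope of 0.36 (adjusted p = 0.000289). Wnt6, a Wnt ligand gene 6193 bases from Wnt10a, had 0.836 ± 0.506 CPM at P1 and 2.49 ± 1.30 CPM in adults (log2 difference 1.59 ± 0.74, adjusted p = 0.107). Pnmt and Stard3 beside Tcap, Pkp1 and Tmem9 beside Igfn1, Slmo2 and Edn3 beside Zfp831 and Cdk5r2 beside Wnt10a had adjusted p from 0.0616 to 0.861.

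The other genes of each pathway were taken from lists. The counts are to be read against the 14.6% of all genes that rose and the 13.4% that fell. In the nephrin and Neph list 3 of 15 genes rose and 2 fell (median -0.08), which is close to those shares. Synpo, an actin-associated protein of podocyte foot processes and dendritic spines, rose by 2.66 ± 0.42 (adjusted p = 4.32e-06), while the adaptor gene Nck2 fell by 1.12 ± 0.24 (adjusted p = 0.000302) and the kinase gene Fyn by 0.86 ± 0.18 (adjusted p = 0.000195). Of 15 other Wnt ligands 1 rose, Wnt9a, from 2.34 ± 1.22 CPM to 6.87 CPM (log2 difference 1.61 ± 0.45, adjusted p = 0.00587), and none fell. Of 15 Wnt receptors and coreceptors, Fzd4 rose by 1.74 ± 0.64 (adjusted p = 0.036) and Ror2 fell by 2.29 ± 0.80 (adjusted p = 0.0277). Of 18 Wnt feedback and target genes 2 rose, Axin2 (1.18 ± 0.36, adjusted p = 0.0114) and Dkk3 (1.04 ± 0.32, adjusted p = 0.0123), both named after their values were seen. In that list 4 fell (median of the list -0.42), namely Nkd2 (fell by 3.20 ± 0.61, adjusted p = 7.85e-05), Sp5 (fell by 2.10 ± 0.56, adjusted p = 0.00363), Sfrp1 (fell by 2.87 ± 0.39, adjusted p = 2.6e-07) and Sfrp2 (fell by 4.57 ± 0.66, adjusted p = 7.98e-07). Axin2 is a feedback inhibitor induced by Wnt signalling, and Sfrp1 and Sfrp2 are secreted Wnt antagonists.

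Of 42 measured sarcomere and striated muscle genes, 15 rose and 1 fell (median 1.45), against 14.6% and 13.4% of all genes. The 4 with the smallest adjusted p were Tnni1 (4.75 ± 0.77, adjusted p = 6.82e-06), Smyd1 (3.61 ± 0.65, adjusted p = 3.58e-05), Tnnt1 (2.73 ± 0.55, adjusted p = 0.000183) and Tnnc1 (4.30 ± 0.89, adjusted p = 0.000235). Tnni1, Tnnt1 and Tnnc1 encode the inhibitory, tropomyosin-binding and calcium-binding troponins of slow muscle, and Smyd1 a muscle methyltransferase. The list did not move as a whole: Casq1, a calcium store protein of muscle, fell by 3.28 ± 0.84 (adjusted p = 0.00254). Ttn, the titin that Tcap caps, had 1.07 CPM at P1 and 0.956 CPM in adults (log2 difference -0.15, adjusted p = 0.929), and Des, Neb, Ckm and Mb had adjusted p from 0.0525 to 0.933. Casq1, Ttn, Des, Neb, Ckm and Mb were named after their values were seen. On the neuronal score 20 of the 42 had a positive slope and 7 a negative one, against 34% and 26.7% of all genes.

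Some markers of other cell types that a cortical dissection could hold changed too. Of 9 oligodendrocyte progenitor genes 2 rose and 2 fell, of 12 microglial genes 3 rose, and of 17 endothelial and mural genes 2 rose and 1 fell. Of 11 ependymal and choroid genes 1 rose and 2 fell, and of 8 meningeal fibroblast genes 1 fell. These are to be read against the 14.6% of all genes that rose and the 13.4% that fell. The part of these cell types in the levels of the 5 genes was not tested.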

How the data were processed

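The 5 genes and all gene lists were chosen with earlier results of these data known. Per the labels' protocols, polysomes were pulled down from fixed cortex, RNA was selected with oligo-dT and strand-specific libraries were made. The submitters' processing notes name CASAVA, HISAT2, SAMtools, featureCounts and build GRCm38.p5. Tool versions, settings and the use of the strand in counting are not stated there. The authors deposited raw read counts, 1 value per gene and library. P7 female 10, P7 male 2, P7 male 6 and P7 female 6 each have 2 sample entries but 1 column, with the 4 largest totals (42222297 to 48541139), and whether a column pools both is not stated. The labels do not say whether libraries of a group came from separate litters, so p-values measure the spread between these libraries. In some libraries the title and description name different sexes, and the sex of the source name was used.

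The quasi-likelihood F test of edgeR 4.0.16 was run under R 4.3.3 (TMM scaling, Benjamini-Hochberg over 21118 genes, threshold 0.05) on 12 sex and age groups and the sequencing run, the second run alone against the rest. The run term gave way to the description number where numbers were compared. Filtering by filterByExpr took out 0 genes. List scores used log2 CPM with a prior count of 2. Lists were mature astrocyte, myelin, neuronal, late neuronal, oligodendrocyte progenitor, microglia, endothelial and mural, ependymal and choroid, meningeal fibroblast, sarcomere, Wnt ligands, Wnt receptors, Wnt targets, and nephrin and Neph. Named genes were the 5, for each the 5 with the highest Pearson r over all libraries and with group means taken away, the nearest counted neighbours, and up to 4 of each list by adjusted p. A few genes that this rule names are not reported here. Of the 21118 gene IDs, 21021 were found in the GENCODE M21 annotation. Counting intervals cover counting error only. The sex, P1 to adult and number tests and the neuronal slope were tried on simulated counts without the age and number effects of these data. The interaction was simulated only with no change present, and the astrocyte and myelin slopes were not simulated. DESeq2 1.42.0, other scalings and filters, the number as a block and leaving out libraries were alternatives. The replicates 10, 30, 40 and 60 carry description numbers 1, 3, 4 and 6.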

Additional observations from a re-analysis of the deposited data

Results flagged for a closer look

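The lowest or highest library of a sex and age group was compared with its neighbours for each of the 5 genes. This made 50 combinations of a gene and a group of 4 to 8 libraries, and 4 stood apart. Chance alone flags about 1 in 20. That rate does not hold where all other libraries of a group had 0 counts, because any count in the remaining one is then flagged. The flags of Zfp831 and Igfn1 below are of this kind. Tcap had 35.7 CPM in P14 female 6, where the other P14 females had 2.42 to 4.30 CPM (median 3.92). Its neuronal score was 7.42 and its astrocyte score 5.89, the highest and the lowest of the P14 females. Zfp831 had 0.586 CPM in P1 male 3, where the other P1 males had 0 counts. Igfn1 had 0.105 CPM in P1 female 3 and 0.0345 CPM in P1 male 2, again with 0 counts in the others of the group, so these values rest on 3 counts and 1 count. No explanation was tested for any of these libraries.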

How the results depend on the processing

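Under DESeq2 scaling, a filter of 10 counts in 10 libraries, DESeq2, no run term and the removal of P7 male 6 and P14 male 6, each call for the 5 genes was kept. Igfn1's astrocyte slope passed without all 11 doubted libraries (-0.93, adjusted p = 0.043). Without the 9 libraries that went against their sex label or held few genes, the number test of Wnt10a was lost (adjusted p = 0.0505), as it was without all 11 (adjusted p = 0.227). Same-numbered libraries deviated together in 209 of 223 pairs (r over 0.1, lowest -0.177, median 0.463, against a median of -0.12 between numbers), which is not every pair, so the numbers were not taken as a pairing by design. The replicate block, as a setting of all slopes, left 3247 genes called on the astrocyte score, 1022 on myelin and 1362 on the neuronal score, against 9770, 7847 and 12821 without it. With the block and without P7 male 6 and P14 male 6 these were 3269, 429 and 1189. With the block the astrocyte slopes of Tcap (1.02) and Zfp831 (0.58) and the neuronal slope of Kirrel2 (0.42) changed sign, and with the pair of libraries left out as well they were 0.77, 0.12 and 0.0179. With 3 scores in 1 model, 1816, 424 and 3875 genes were called, and the astrocyte slope of Zfp831 (0.23) and the neuronal slope of Wnt10a (-0.51) changed sign. Without the run term 5032 genes were called on myelin. DESeq2 called 3 genes for the interaction. Leaving out 1 library or 1 number gave 4135 to 6232 genes from P1 to adult, 0 to 6 between the sexes, 0 for the interaction, 9460 to 15708 between numbers, and 6591 to 11041, 483 to 9844 and 6990 to 13430 for the astrocyte, myelin and neuronal slopes. Number 3 decided the low ends for the number test and for the myelin and neuronal slopes. Without number 3, Igfn1 lost its number test (adjusted p = 0.203) and its neuronal slope (0.98, adjusted p = 0.145), Zfp831 its astrocyte slope (-0.76, adjusted p = 0.05) and Kirrel2 its neuronal slope (-1.09, adjusted p = 0.089). Without number 1, Kirrel2 lost its neuronal slope (-0.68, adjusted p = 0.0789) and its number test (adjusted p = 0.064). Without number 6, Tcap lost its number test (adjusted p = 0.0987) and its astrocyte slope (-0.20, adjusted p = 0.495), Wnt10a its number test (adjusted p = 0.0908), and the astrocyte slope of Igfn1 passed (-1.39, adjusted p = 0.00478). Without S, Wnt10a lost its number test (adjusted p = 0.27). The fitted P1 to adult difference was 10.4 for Zfp831 without P1 male 3 and 7.35 for Kirrel2 without number 1. The causes were not tested. Depth limits the P1 levels, where Igfn1 had 4 and Zfp831 13 counts over all libraries.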
